A study of Mus musculus with 10 samples.

Results

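The mitosis genes described here are a list of 46 genes whose products drive cells into and through division. The list holds mitotic cyclins and kinases, the spindle checkpoint, the chromosomal passenger complex, spindle motors, centromere proteins and chromosome proteins. The members were chosen by name, and each was represented by the probe set of a single gene symbol with the highest mean over the 10 arrays. Of the 46 genes, 45 had such a probe set, and all 45 passed the filter on low signal, among 12161 genes tested on the array. Ccnb1 is not analysed here.

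Signals came from mouse Lewis lung carcinoma cells (strain C57BL/6), a lung tumour line. One line stably expressed TDAG8 (Gpr65), a receptor of the cell surface that senses protons, and the other carried the control vector. Below they are named by those labels, TDAG8 line and control line. Both lines spent 12 h without serum, in medium with bovine serum albumin at pH 7.4, and then received the same kind of medium at pH 6.4 or pH 7.4 for 4 h or 12 h. A further array of each line was taken before that change of medium. There was 1 Affymetrix mouse genome array for each line and condition, and each held RNA pooled in equal amounts from 4 independent cultures. Without replicate arrays, matched arrays of both lines or of several conditions stood in for replicates, so the p-values measure only the spread among these arrays. Whether each line was 1 clone or a pool of transfected cells is not given in the sources used here.

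Most mitosis genes are transcribed in late S and G2 phase, and their proteins are degraded as cells leave division. The DREAM and MuvB complexes, with B-MYB and the factor Foxm1, act on them through the cell cycle homology region, a short promoter element abbreviated CHR. The trimeric factor NF-Y binds the CCAAT box found in many of the same promoters. Because cycling cells carry far more of these transcripts than resting cells, the genes are widely read as markers of proliferation. In bulk RNA such as this, fewer cells in G2 and mitosis and less RNA per cell cannot be told apart.

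Promoters are shown because these elements are what many members have in common besides their function. RefSeq promoter windows (GRCm38.p6, 250 bases before to 50 bases after the start) were found for 38 of the 46 genes. Ccna2, Cdc25c, Foxm1, Aurkb, Incenp, Kif20a, Tpx2 and Smc4 had no entry. The CHR was searched as TTTGAA and the CCAAT box as CCAAT, on both strands. Matches of these motifs can share at most 1 base. TTTGAA stood in 26 of the 38 windows (68.4%), against 20.2% of the windows of 27025 genes. CCAAT stood in 29 of 38 (76.3%), against 41.1% of those genes, and both stood in 23 (60.5%), against 7.97%. The 6 stretches below are the 120 bases before the start of genes that stand out in the results, written 5′ to 3′ on the gene's strand. Capitals mark matches of either motif on either strand. Ccnb2 (chr9:70421555-70421674, minus strand), lower at 12 h, held 3 CCAAT boxes. Cdk1 (chr10:69352913-69353032, minus strand), higher at 12 h, held 2 matches of each motif. Cenpe (chr3:135212443-135212562, plus strand), with the largest fall, held 1 CCAAT box. Ect2 (chr3:27153879-27153998, minus strand, the first of 2 listed starts) and Ttk (chr9:83834569-83834688, plus strand) were lower at 4 h. Plk4 (chr3:40799831-40799950, plus strand), higher at 12 h, held neither element in this stretch.
Ccnb2: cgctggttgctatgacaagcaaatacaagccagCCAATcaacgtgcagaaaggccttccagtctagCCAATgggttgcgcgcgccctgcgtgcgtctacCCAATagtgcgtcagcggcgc
Cdk1: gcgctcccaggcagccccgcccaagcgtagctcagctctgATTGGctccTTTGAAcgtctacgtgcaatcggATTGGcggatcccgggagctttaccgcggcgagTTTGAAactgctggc
Cenpe: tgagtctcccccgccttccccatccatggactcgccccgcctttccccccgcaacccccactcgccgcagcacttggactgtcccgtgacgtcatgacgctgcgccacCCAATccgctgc
Ect2: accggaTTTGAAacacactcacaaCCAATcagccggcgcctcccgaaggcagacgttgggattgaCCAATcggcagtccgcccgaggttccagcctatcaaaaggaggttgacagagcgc
Ttk: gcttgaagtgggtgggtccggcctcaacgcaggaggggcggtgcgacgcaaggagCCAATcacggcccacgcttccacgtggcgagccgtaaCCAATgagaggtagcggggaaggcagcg
Plk4: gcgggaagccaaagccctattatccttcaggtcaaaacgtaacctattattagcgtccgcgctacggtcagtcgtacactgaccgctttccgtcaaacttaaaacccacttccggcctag
Over the whole windows, TTTGAA stood in 3 of the 4 genes with an entry that were lower at 4 h, in 3 of 6 that were lower at 12 h, and in 1 of 3 that were higher at 12 h. The counts for CCAAT were the same, 3 of 4, 3 of 6 and 1 of 3. Those groups are small, and a match describes the letters of a window, not binding.

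Median deposited signals were 11.7 to 13.8 over all probe sets of an array, and 577 to 850 over the 45 genes. Ratios of 3′ to 5′ control probe sets ran from 1.26 to 1.35 for actin and from 0.756 to 0.841 for Gapdh. The lowest Gapdh ratios were those of the pH 6.4 arrays at 12 h (0.77 and 0.756), and the next was 0.78. The actin ratios of those arrays were 1.27 and 1.35, within the range of the others. The part of the Gapdh ratios in the results was not tested. The B1 repeat probe set was brighter after 12 h at pH 6.4 (2602 and 3587) than elsewhere (843.7 to 1456), and its part in the results at 12 h was not tested. Gpr65 read 0.3 to 5.3 on all arrays, in both lines. Whether the TDAG8 construct holds the stretch that this probe set targets is not given in the sources used here, so the reading does not check the line labels. Summed signals of 6 leukocyte markers (22.8 to 51.3) and 5 endothelial markers (16.8 to 33.6) were low on all arrays, and that of 5 epithelial markers was 1288 to 2863. Most of the epithelial sum was Krt8 (1242 to 2648), while Cdh1 (0.2 to 5.3) and Cldn4 (1.3 to 6.6) were near the floor. The 5 fibroblast markers summed to 2622 and 1494 at pH 6.4 for 12 h and to 6905 and 5256 at pH 7.4 for 12 h (TDAG8 and control line). Most of the fibroblast sum was Lum, Pdgfra and Dcn, while Col1a1 read 0.4 to 6.4. No marker was listed at 0, and the part of the marker differences in the results for the mitosis genes was not tested.

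A small group of mitosis genes was lower in acid medium by 4 h. In the pH comparisons, a rise or fall means higher or lower at pH 6.4 than at pH 7.4, not a change over time. In the comparison of pH 6.4 with pH 7.4 at 4 h, 5 of the 45 genes fell and none rose (limma, Benjamini-Hochberg adjusted p under 0.05). The 5 were Cenpe, Kif20b, Ect2, Kif20a and Ttk, which act at kinetochores, at the spindle or in cytokinesis. Over all genes tested 17.7% were called at 4 h and 11.5% were called lower, so the members' share of 11.1% was close to the background. The median difference of the 45 genes was -0.14 on the log2 scale, against 0.01 for all genes. It was -0.11 against -0.06 with arrays centred on the median and -0.06 against -0.01 as deposited, so the gap from all genes was smaller under both of those scalings. Of the 45 genes, 31 (68.9%) were lower at pH 6.4 in both lines after quantile normalisation, against 37.3% of all genes. That count also depended on the scaling. As deposited, Cdk1 and Top2a, counted as lower here, were higher at pH 6.4 in both lines. Fitted differences below 0 numbered 32 here, 29 with arrays centred on the median and 26 as deposited.

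Cenpe, a kinesin-like motor that holds chromosomes to spindle microtubules, had the lowest pH difference. Signals of a gene are given from here on for each line in the order before treatment, pH 7.4 at 4 h and 12 h, and pH 6.4 at 4 h and 12 h. Cenpe read 435.5, 467.3, 412.2, 128.3 and 144.4 in the TDAG8 line, and the control line gave 432.7, 466.4, 440.5, 210.7 and 245.4. All 4 arrays at pH 6.4 lay below the other 6. Its difference at 4 h was -1.39 on the log2 scale (SE 0.24, a 2.62-fold fall, limma adjusted p = 0.0137), and its second probe set differed by -1.22.

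Among the kinesins, which move along or take apart microtubules, Kif20b and Kif20a fell at 4 h. Kif20b, a cytokinesis motor, read 482.3, 470.1, 405.8, 177.1 and 269.5 in the TDAG8 line, and the control line gave 468.2, 478.9, 393.5, 198.8 and 452.8. The difference at 4 h was -1.24 (SE 0.21, limma adjusted p = 0.0145), and the control line's array at pH 6.4 and 12 h was back among the arrays at pH 7.4. Kif20a, which carries the passenger complex to the central spindle, read 440.3, 420.7, 354.5, 223.1 and 182 in the TDAG8 line, and the control line gave 484.9, 452.2, 385.2, 263.2 and 317.6. All 4 of its arrays at pH 6.4 lay below the other 6, and its difference at 4 h was -0.76 (SE 0.19, limma adjusted p = 0.0446). Kif11, the motor that separates spindle poles, was lower at 4 h by a like amount in both lines (-0.49 and -0.50) without passing the test, and Kif4 differed by 0.38 the other way (SE 0.10, limma adjusted p = 0.0535).

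Ect2, the exchange factor that activates RhoA at the division furrow, differed between the pH values at 4 h by -0.88 in the TDAG8 line, against -0.86 in the control line. Its signals were 558.8, 585.6, 459.2, 311.9 and 410.6 in the TDAG8 line, and the control line gave 626.5, 653.7, 631.8, 341.9 and 570.9. The fitted difference was -0.87 (SE 0.14, limma adjusted p = 0.0110). Both pH 6.4 arrays at 4 h were the lowest of their lines, and by 12 h the pH difference was -0.19 (SE 0.14, limma adjusted p = 0.336).

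Ttk, the checkpoint kinase also known as Mps1, was the only one of the 5 spindle checkpoint genes to change at 4 h. It read 178.2, 155.2, 127, 97.4 and 131.1 in the TDAG8 line, and the control line gave 197.9, 181.2, 175.2, 107.7 and 170.1, a difference of -0.57 at 4 h (SE 0.11, limma adjusted p = 0.0232). Its second probe set, at a mean signal of 22.6, differed by 0.39 in the other direction. Bub1, Bub1b, Bub3 and Mad2l1 differed by -0.10 to 0.13 at 4 h.

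The 4 mitotic kinases all had differences below 0 at 4 h, of -0.66 (Plk1), -0.44 (Aurka), -0.41 (Plk4) and -0.26 (Nek2), and none of them passed the test there. Plk1, the polo kinase that triggers mitotic entry, read 524.4, 496, 363.3, 305.2 and 225.3 in the TDAG8 line, and the control line gave 530.5, 502.9, 430.9, 306 and 346.4. All 4 arrays at pH 6.4 were below the other 6. Its difference averaged over both times and lines was -0.59 (SE 0.12, a 1.51-fold fall), and this passed the test (limma adjusted p = 0.0441). Cyclins, Cdk1 and the CDC25 phosphatases, the switch for mitotic entry, differed by -0.14 to 0.18 at 4 h and none passed the test.

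The call count at 4 h depended on single arrays. It was 0 without either pH 7.4 array at 4 h, 1 without either pH 6.4 array at 4 h and 9 without either pH 6.4 array at 12 h. Cenpe and Ect2 were called in 7 of those 10 fits, Kif20b and Ttk in 6 and Kif20a in 2. Their differences stayed below 0 in all 10, at -1.62 to -1.16 for Cenpe, -1.34 to -1.14 for Kif20b and -0.96 to -0.78 for Ect2. Of the 45 differences, 32 were below 0, and this count was 29 with arrays centred on the median and 26 without further normalisation. Without any test, 7 genes were lower by at least 0.58 on the log2 scale (1.5-fold) at 4 h in the TDAG8 line, against 7 in the control line, and 0 were higher in either. Over all genes 14.4% and 14.8% were lower by that much and 9.65% and 9.88% were higher. Plk1, Kif20a, Kif20b, Cenpe, Cenpf and Ect2 were among the 7 in both lines.

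**Figure D1:**
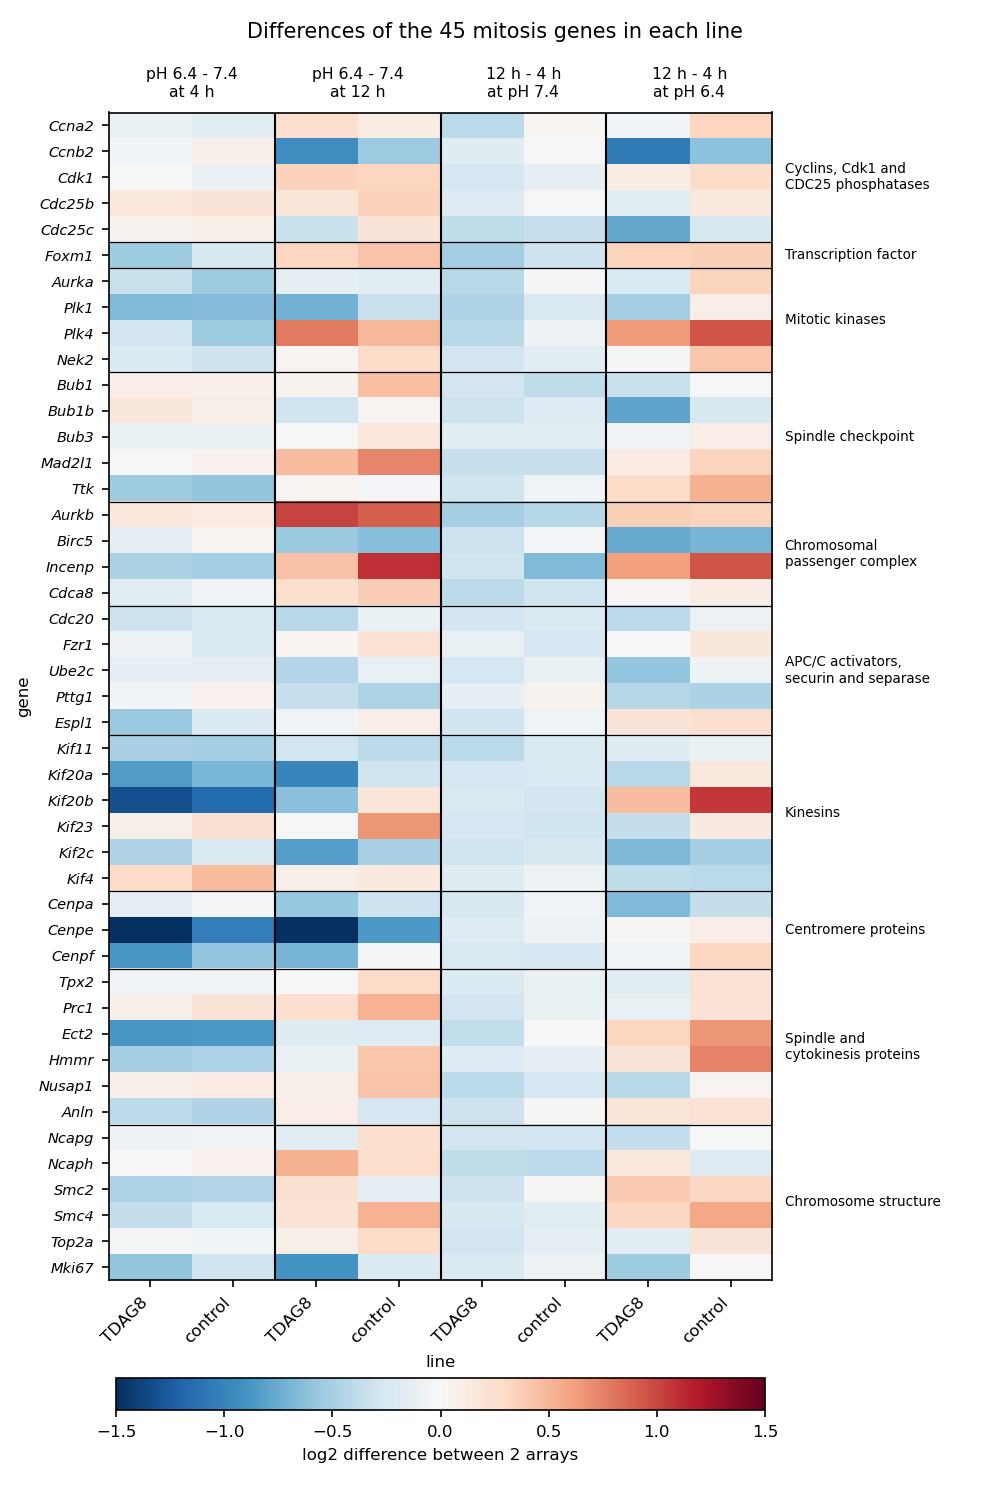
Log2 differences between 2 single arrays for the 45 mitosis genes, grouped by role, with 1 column for each line in each of 4 comparisons (blue lower, red higher, colours end at 1.5). Blue prevails in both columns at 4 h and at pH 7.4 over time, while the columns at 12 h hold both colours, with Aurkb, Incenp and Plk4 red and Cenpe and Ccnb2 blue. Cenpe in the TDAG8 line lies beyond the colour scale at 4 h (-1.74) and at 12 h (-1.53).

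At 12 h mitosis genes were called in both directions, and 33 of the 45 were not called. In the comparison of pH 6.4 with pH 7.4 at 12 h, 5 genes were higher at pH 6.4 (Aurkb, Incenp, Plk4, Mad2l1 and Cdk1). Lower at pH 6.4 were 7 genes (Cenpe, Ccnb2, Kif2c, Kif20a, Birc5, Cenpa and Pttg1). Over all genes tested 34.5% were called at 12 h, 16.9% higher and 17.6% lower, so the members' 26.7% in all, 11.1% higher and 15.6% lower, was below the background in both directions. With arrays centred on the median, 9 members rose and 4 fell. The median difference was 0.05 on the log2 scale, against 0.02 for all genes, and 15 of 45 genes (33.3%) were lower in both lines against 36.8% of all genes.

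Both directions were found within the chromosomal passenger complex, which corrects attachments of chromosomes to the spindle and then directs cytokinesis. Its kinase Aurkb and its scaffold Incenp rose, its small subunit Birc5 (survivin) fell, and Cdca8 (borealin) was higher by 0.30 without passing the test (limma adjusted p = 0.0521). Aurkb read 515.7, 477.8, 340.9, 539.4 and 682.1 in the TDAG8 line, and the control line gave 562.8, 544.2, 400.8, 595 and 759.8. The pH 6.4 arrays at 12 h were the highest of their lines and the pH 7.4 arrays at 12 h the lowest. The difference was 0.95 (SE 0.09, a 1.94-fold rise, limma adjusted p = 0.00122), its second probe set differed by 0.82, and it remained called without any 1 of the 10 arrays.

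Incenp read 1699, 1896, 1537, 1507 and 2029 in the TDAG8 line, and the control line gave 2178, 2006, 1260, 1606 and 2849. It rose by 0.77 at 12 h (SE 0.16, limma adjusted p = 0.0151), by 0.44 in the TDAG8 line, against 1.09 in the control line, and 3 further probe sets differed by 0.52 to 0.66. Birc5 read 1001, 1028, 823.5, 1018 and 577 in the TDAG8 line, and the control line gave 1302, 1231, 1178, 1380 and 792. The pH 6.4 array at 12 h was the lowest of each line, and the difference was -0.60 (SE 0.11, limma adjusted p = 0.00792). Leaving out the control line's pH 7.4 array at 12 h gave Birc5 an adjusted p of 0.0565, and leaving out either control line array at 12 h took Incenp past the threshold, to 0.0749 at most.

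Of the cyclins and their partners, Ccnb2 fell and Cdk1 rose at 12 h. Ccnb2, a B-type cyclin that activates Cdk1, read 940.9, 996.6, 874.8, 1043 and 476.5 in the TDAG8 line, and the control line gave 1106, 1018, 988.7, 1158 and 702.9. The pH 6.4 arrays at 12 h were the lowest of all 10, while at 4 h the pH 6.4 arrays were at the top of each line. Its difference at 12 h was -0.74 (SE 0.15, limma adjusted p = 0.0123), and at 4 h it was 0.01. Cdk1, the kinase itself, was higher by 0.35 in the TDAG8 line, against 0.32 in the control line (fit 0.33, SE 0.09, limma adjusted p = 0.0385).

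Mad2l1 was the spindle checkpoint gene that changed at 12 h. Its protein, MAD2, holds back the anaphase-promoting complex (APC/C) until chromosomes are attached. Its signals were 2009, 2128, 1668, 2401 and 2226 in the TDAG8 line, and the control line gave 2397, 2074, 1624, 2494 and 2851, so the pH 7.4 arrays at 12 h were the lowest of their lines. It rose by 0.60 (SE 0.11, a 1.52-fold rise, limma adjusted p = 0.00804). Ttk, lower at 4 h, differed by 0.01 at 12 h (SE 0.11).

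Plk4, the kinase that starts centriole duplication, read 781.9, 655.5, 497.2, 553.3 and 840 in the TDAG8 line, and the control line gave 747.9, 779.7, 725.8, 538.4 and 1049. The pH 6.4 array was the lowest of the control line at 4 h and the highest of each line at 12 h. The difference at 12 h was 0.63 (SE 0.17, limma adjusted p = 0.0348), and its 2 other probe sets differed by 0.70 and 0.76.

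Lower at 12 h were also the microtubule depolymerase Kif2c and, at both times, Kif20a and Cenpe. Kif2c read 704.7, 725.3, 603.4, 549.3 and 348.2 in the TDAG8 line, and the control line gave 641.5, 704, 585.9, 609.9 and 430.7, a difference of -0.66 at 12 h (SE 0.14, limma adjusted p = 0.0145). Its pH 6.4 arrays at 12 h were the lowest of all 10, and the next 2 probe sets differed by -0.48 and -0.44. Kif20a differed by -0.99 in the TDAG8 line, against -0.29 in the control line (fit -0.64, SE 0.19, limma adjusted p = 0.0456). Cenpe differed by -1.53 and -0.86 (fit -1.19, SE 0.24, limma adjusted p = 0.0114).

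Cenpa, the histone variant that marks centromeres, fell by 0.44 on the log2 scale (SE 0.12, limma adjusted p = 0.0381), while a dim second probe set differed by 0.40 the other way. Among the APC/C activators, securin and separase, only Pttg1 (securin, the guardian of separase) was called. Pttg1 read 982.7, 1036, 943.2, 1090 and 771.9 in the TDAG8 line, and the control line gave 1018, 1050, 1044, 1190 and 801.8. Both pH 6.4 arrays at 12 h lay below the other 8 (difference -0.40, SE 0.09, limma adjusted p = 0.0200). Cdc20 and Ube2c, which drive APC/C activity, differed by -0.26 and -0.27 and did not pass.

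By their brightest probe sets, Foxm1 and the chromosome proteins held no call. Foxm1, the transcription factor that switches on many G2 genes, read 171.8, 136.3, 95, 84.3 and 118.2 in the TDAG8 line, and the control line gave 131.4, 130.3, 106.3, 99.2 and 138.6. Its brightest probe set differed by 0.38 at 12 h (SE 0.16, limma adjusted p = 0.125) and by -0.39 at 4 h. The next 2 probe sets differed by -0.48 and -0.35 at 12 h, so the sign of Foxm1 at 12 h is not settled by this array. Mki67, the coat protein of mitotic chromosomes and a proliferation marker, read 1415, 1570, 1363, 1147 and 755.8 in the TDAG8 line, and the control line gave 1646, 1578, 1498, 1425 and 1313. All 4 arrays at pH 6.4 were below the pH 7.4 array of the same line and time, and the difference at 12 h was -0.56 (SE 0.20, limma adjusted p = 0.0769). Top2a depended on the probe set. Its brightest differed by -0.05 at 4 h and 0.18 at 12 h, and its second, at a mean signal of 107, by -1.08 and -0.50.

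**Figure D2:**
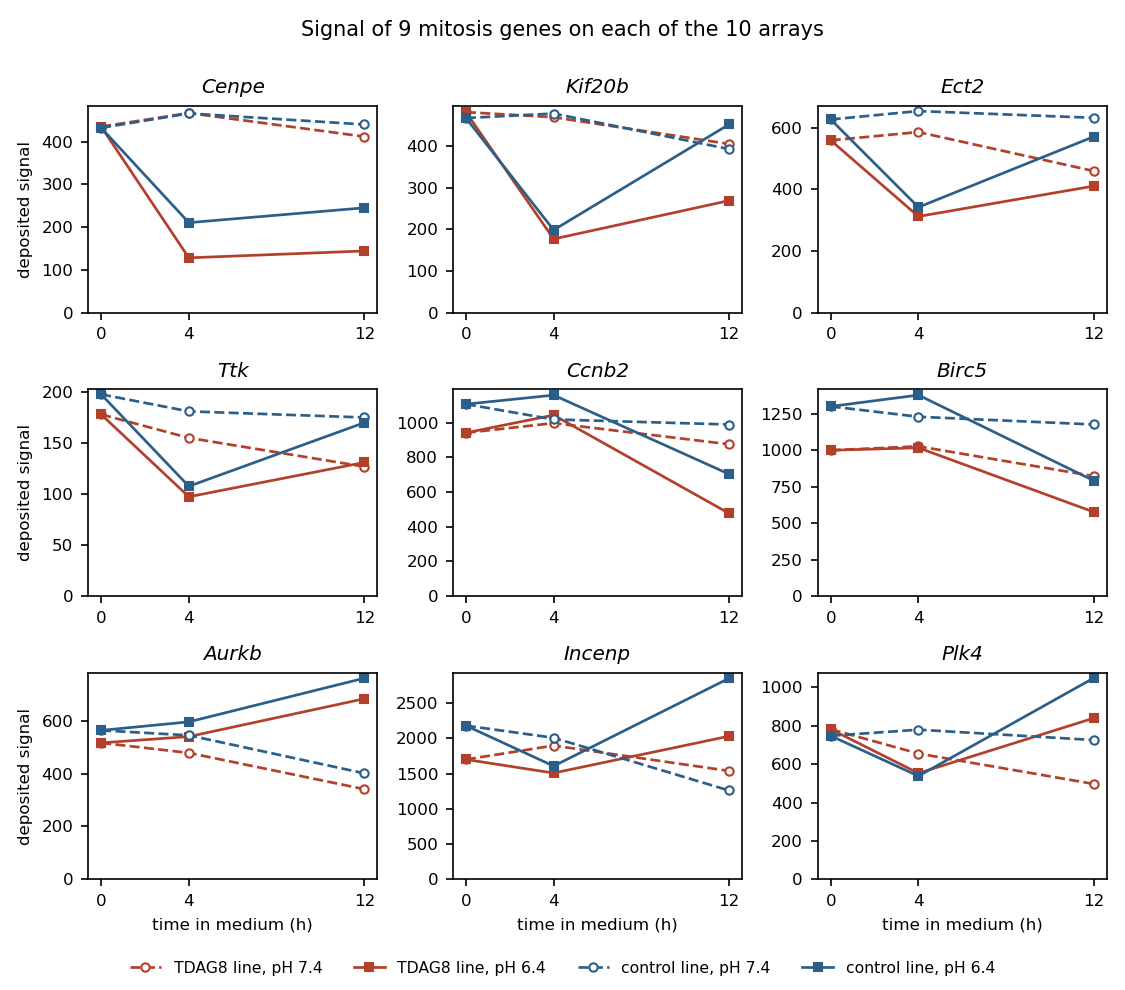
Deposited signal of 9 mitosis genes on each of the 10 arrays against time in medium in hours, with lines for the TDAG8 line (red) and the control line (blue) at pH 7.4 (dashed, open circles) and pH 6.4 (filled squares). The array before treatment is drawn at 0 h for both pH values, and each panel starts at 0. Cenpe stayed low at pH 6.4, Kif20b, Ect2 and Ttk were low at 4 h, Ccnb2 and Birc5 were low at 12 h, and Aurkb, Incenp and Plk4 were high at 12 h.

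Which members were called at 12 h depended on the arrays used. Without the TDAG8 line's pH 6.4 array at 12 h, 9 genes were higher and 2 lower, and without the control line's pH 6.4 array 2 were higher and 11 lower. Without the pH 7.4 array at 12 h, 4 genes (TDAG8 line) or 3 genes (control line) were called, and without any other array 8 to 10 were. Kif20a and Cenpa were called in 1 of the 10 fits, Cdk1 in 2, Plk4 in 5, Pttg1 in 6, Kif2c in 7, Cenpe, Ccnb2 and Incenp in 8, and Birc5 and Mad2l1 in 9. Over single arrays, 2 genes were higher and 8 lower by at least 0.58 in the TDAG8 line, against 16.5% and 18.0% of all genes. In the control line 4 were higher and 2 lower, against 17.1% and 18.0% of all genes. Aurkb was among the higher genes and Cenpe among the lower genes in both lines.

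Averaged over both times, pH 6.4 lowered Cenpe, Kif20a and Plk1 and raised no member. Over all genes 4.47% were called higher and 5.56% lower, against 6.67% of the members called lower. The difference of Cenpe was -1.29 (SE 0.18, limma adjusted p = 0.0207) and that of Kif20a was -0.70 (SE 0.15, limma adjusted p = 0.0466). Both were lower at pH 6.4 in 4 of 4 pairs of arrays, as was Plk1. None of the 3 was called when any 1 of the 4 pairs was left out, and the highest adjusted p was then 0.0894 for Cenpe, 0.141 for Kif20a and 0.137 for Plk1.

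The pH difference itself moved upward between 4 h and 12 h in 3 members. The test of the difference between the pH effects called Incenp (1.26, SE 0.23, limma adjusted p = 0.0270), Plk4 (1.04, SE 0.25, limma adjusted p = 0.0467) and Aurkb (0.81, SE 0.12, limma adjusted p = 0.0199). By their brightest probe sets, Incenp and Plk4 went from below 0 at 4 h (-0.49 and -0.41) to above 0 at 12 h, and Aurkb from 0.14 to 0.95. The next 3 Incenp probe sets differed by only -0.09, -0.06 and -0.11 at 4 h. The 2 other Plk4 probe sets differed by -0.44 and 0.20 at 4 h, so the 4 h values of both genes depended on the probe set. None was called in the opposite direction. Over all genes 12.1% were called and 6.63% were called in the upward direction, against 6.67% of the members, and 35 of the 45 genes had a value above 0. With the values as deposited 5 members were called above 0 and 2 below. Kif20b (1.02), Foxm1 (0.76), Ect2 (0.68) and Ttk (0.58) had values above 0 and Ccnb2 (-0.75) and Birc5 (-0.55) below 0, without passing the test. Leaving out any 1 of the 4 arrays at 4 h, or either pH 7.4 array at 12 h, left no member called. There was 1 call without either array before treatment, 5 calls without the TDAG8 line's pH 6.4 array at 12 h, and 2, of which 1 was below 0, without that of the control line. Centring arrays on the median moved the median of all genes in this comparison from 0.04 to 0.20 and that of the members from 0.22 to 0.41.

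**Figure D3:**
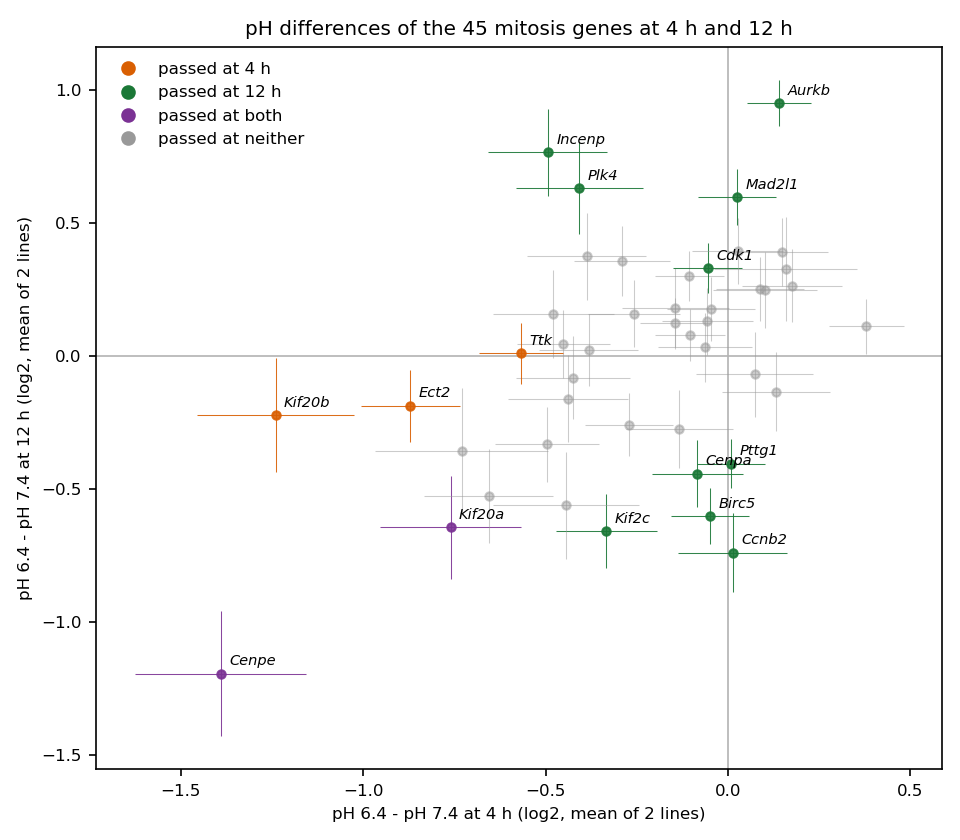
Fitted pH difference (pH 6.4 minus pH 7.4, log2, mean of both lines) at 12 h against that at 4 h for the 45 mitosis genes, with bars of 1 standard error and colours for the genes called at 4 h, at 12 h, at both or at neither. Cenpe and Kif20a lie low on both axes, Kif20b, Ect2 and Ttk were called at 4 h, and Aurkb, Incenp and Plk4 lie high on the 12 h axis.

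Between 4 h and 12 h in acid medium, 6 members rose and 7 fell. Plk4 (0.79), Incenp (0.78), Kif20b (0.77), Ect2 (0.50), Ttk (0.40, but -0.08 when all its probe sets were averaged) and Aurkb (0.35) rose, and Ccnb2 (-0.84), Birc5 (-0.73), Kif2c (-0.59), Bub1b (-0.52), Cenpa (-0.51), Pttg1 (-0.45) and Kif4 (-0.39) fell. With arrays centred on the median 8 rose and 4 fell, and the median of all genes moved from 0.03 to 0.14. Over all genes 27.2% were called, 14.9% higher and 12.2% lower, against 28.9% of the members. This comparison shares the pH 6.4 arrays of both times with the pH comparisons above, so its values repeat part of the same measurements. Birc5 stayed called without any 1 array (limma adjusted p at most 0.0419). Without either pH 6.4 array at 4 h 1 member was called, without the TDAG8 line's array at pH 6.4 and 12 h 6 were, without that of the control line 8 were, and without any other array 6 or 7 were. Ect2, Ttk, Aurkb and Kif4 were called in none of those 10 fits, and Kif20b and Bub1b in 1.

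Bub1b, the checkpoint kinase BUBR1, was called in this comparison alone among those made. It read 510.2, 492, 397.1, 565.7 and 331.2 in the TDAG8 line, and the control line gave 552.7, 536.2, 468.2, 567.9 and 483.7. The pH 6.4 array at 4 h was the highest of each line, and the fall to 12 h was -0.79 in the TDAG8 line, against -0.24 in the control line (fit -0.52, SE 0.15, limma adjusted p = 0.0478). Its pH difference was 0.13 at 4 h and -0.13 at 12 h, and that of its second probe set was 0.05 and 0.00.

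At pH 7.4 the mitosis genes were all slightly lower at 12 h than at 4 h, without any passing the test. All 45 fitted differences were below 0, with a median of -0.21 against 0.00 for all genes, and the lowest were Incenp (-0.48), Aurkb (-0.47), Foxm1 (-0.41) and Ncaph (-0.39). In the TDAG8 line 45 of 45 genes were lower at 12 h and in the control line 40 of 45, and 40 (88.9%) were lower in both lines against 31.4% of all genes. No gene passed the test, member or not (0% called by limma), and 7 of the 45 had an unadjusted p under 0.05. The 45 differences were below 0 as well after median centring, without further normalisation and when all probe sets of a gene were averaged. The 5 genes not lower in the control line were Ccna2, Ccnb2, Pttg1, Smc2 and Anln, at 0.01 to 0.05. Neighbouring lists shifted as well. Of 26 DNA replication and G1/S genes, 25 were below 0 (median -0.41), as were 17 of 19 kinetochore genes (median -0.28). Below 0 were also 19 of 22 DREAM, E2F and NF-Y genes (median -0.13) and 13 of 15 APC/C genes (median -0.08). Of 12 cohesin genes, 6 were below 0 (median -0.02), as were 6 of 14 CDK inhibitors and related genes (median 0.01). The pH 7.4 arrays at 12 h are the reference for the pH difference at 12 h. Aurkb, Mad2l1 and Cdk1 were at the lowest of each line there, so their pH differences at 12 h are taken against those low values. For Incenp this held only for the control line's array (1260), and for Plk4 only for that of the TDAG8 line (497.2).

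The change of medium itself gave no call. Between the arrays before treatment and those at pH 7.4 for 4 h, the median difference was -0.02, the range was -0.23 to 0.18, and 0 of 45 genes had an unadjusted p under 0.05 (limma, 0% of all genes called). Over both pH values, 12 h against 4 h gave no call among members or other genes (0%), with 4 members at an unadjusted p under 0.05 and a median of -0.07.

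In the TDAG8 line most members were slightly lower than in the control line. The fitted difference was below 0 for 42 of 45 genes, with a median of -0.17 against 0.00 for all genes, and 17 of 45 (37.8%) were lower in 5 of 5 matched pairs of arrays, against 11.8% of all genes. None passed the test (limma, 13 at an unadjusted p under 0.05), while 1.20% of all genes did. Birc5 came nearest (-0.37, SE 0.07, limma adjusted p = 0.0665), lower in 5 of 5 pairs, followed by Ttk (-0.30, SE 0.07, limma adjusted p = 0.104). The count of 42 was 44 after median centring, 43 without further normalisation and 41 when all probe sets of a gene were averaged. The line difference was also below 0 for 22 of 26 DNA replication and G1/S genes (median -0.21) and 18 of 19 kinetochore genes (median -0.13). It was below 0 for 7 of 12 cohesin genes (median -0.09) and 11 of 22 DREAM, E2F and NF-Y genes (median 0.00).

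The line difference can also be read in each condition, from 1 pair of arrays. Its median over the 45 genes was -0.08 before treatment, -0.02 at pH 7.4 for 4 h, -0.17 at pH 7.4 for 12 h, -0.09 at pH 6.4 for 4 h and -0.40 at pH 6.4 for 12 h. On the last pair of arrays 43 of 45 genes were lower in the TDAG8 line, and 10 of them by at least 0.58, against 7.04% of all genes. The 10 were Cenpf (-0.85), Kif20a (-0.83), Mki67 (-0.79), Kif20b (-0.78), Cenpe (-0.78), Cdc25c (-0.77), Plk1 (-0.64), Kif23 (-0.62), Ncapg (-0.62) and Bub1b (-0.58). This is 1 array against 1, with no test. On the same 2 arrays the B1 repeat differed (2602 in the TDAG8 line, against 3587 in the control line), and its part in the line difference was not tested.

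Whether acid acted differently in the lines was asked by the test of the pH effect in the TDAG8 line against that in the control line. No gene was called (limma, 0% of all genes), and 0 of 45 members had an unadjusted p under 0.05, with a median of -0.16 and a range from -0.69 (Cenpe) to 0.27 (Plk4). The standard error of this difference had a median of 0.30 over the members, so differences between the lines of that size were not detectable with these arrays. Cenpe had the value farthest from 0 (SE 0.28), and its pH difference was larger in the TDAG8 line at both times (-1.74 and -1.53) than in the control line (-1.04 and -0.86).

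**Figure D4:**
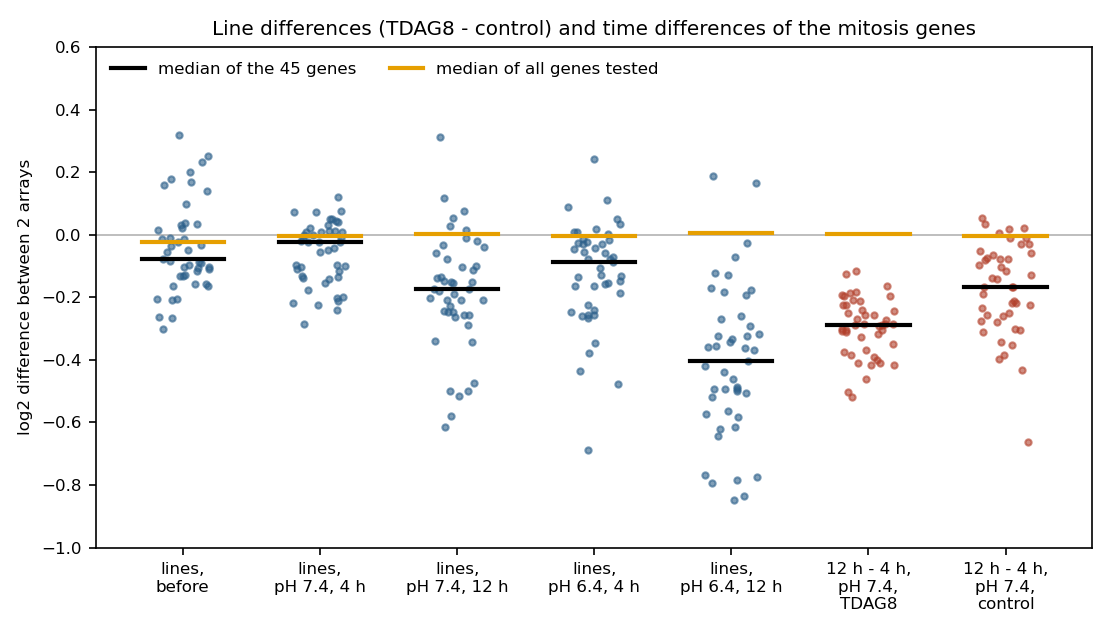
Log2 differences between 2 single arrays for the 45 mitosis genes (points), with the median of the 45 genes (black) and of all genes tested (orange): TDAG8 minus control line in 5 conditions (blue), and 12 h minus 4 h at pH 7.4 in each line (red). The line difference is lowest at pH 6.4 for 12 h, with a median of -0.40, and at pH 7.4 over time 45 genes of the TDAG8 line and 40 of the control line lie below 0.

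Of the 45 genes, 18 were called in at least 1 test and 27 in none. The 27 included 6 of the 6 chromosome structure genes (condensin subunits, Top2a and Mki67), Foxm1, the kinases Aurka and Nek2, and Cenpf, the farthest from 0 among uncalled members at 4 h (-0.73, SE 0.24, limma adjusted p = 0.0852). Probe sets could be compared within 31 genes. The 2 brightest probe sets had the same sign of the pH difference in 27 of 31 genes at 4 h and in 21 of 31 at 12 h. Among called genes with a second probe set, signs agreed in 2 of 3 at 4 h (not Ttk) and in 6 of 7 at 12 h (not Cenpa).

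Regulators of the mitosis genes were also measured. Of 22 DREAM, E2F and NF-Y genes, 2 rose and 9 fell at pH 6.4 for 4 h, with a median of -0.33. That share of 50% was above the 17.7% of all genes called, of which 11.5% were called lower. At 12 h 4 rose and 3 fell, with a median of 0.11, a share of 31.8% below the 34.5% of all genes. Named by their largest difference in any comparison were Nfyc (-1.09 at 4 h and -2.07 at 12 h), the E2F partner Tfdp2 (-1.33 at 12 h) and the repressor E2f8 (-0.99 at 4 h). E2f8 also had a pH effect that was higher at 12 h than at 4 h by 1.39 (SE 0.20, limma adjusted p = 0.0195). The 2 other NF-Y subunits, whose differences at 12 h were larger than that of E2f8 at 4 h, are named here after their values were seen because NF-Y binds CCAAT. They moved opposite to Nfyc. Nfya rose by 0.83 and 1.21 and Nfyb by 0.55 and 1.28 at 4 h and 12 h, and all their probe sets had the same sign.

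Nfyc, which is needed for the complex to form, read 357.1, 390.2, 353.7, 168.7 and 78.3 in the TDAG8 line, and the control line gave 311.1, 332.6, 328.6, 143.6 and 77. All 4 arrays at pH 6.4 were below the other 6, from 1 probe set (SE 0.10, limma adjusted p = 0.000622 at 12 h). Nfyb read 257.9, 239.3, 222.2, 339.2 and 569.6 in the TDAG8 line, and the control line gave 280.9, 238, 234.8, 330.3 and 542.8, with all 4 arrays at pH 6.4 above the other 6.

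Brakes on the cell cycle were called more often than all genes at 4 h and about as often at 12 h. Of 14 CDK inhibitors and related genes tested (of 15 listed), 4 rose and 0 fell at 4 h (28.6%, against 17.7% of all genes called in either direction). Only 753 of all 12161 genes were called higher at 4 h. At 12 h 3 rose and 2 fell (35.7%, against 34.5%). Gadd45b rose by 2.42 and 2.44 at the 2 times (limma adjusted p = 0.00656 and 0.00287), and Cdkn1a (p21, an inhibitor of cyclin-dependent kinases) by 1.27 and 1.41. Btg2 rose by 1.66 at 4 h. Cdkn1a read 109.4, 126.1, 151.3, 308.8 and 366.8 in the TDAG8 line, and the control line gave 179.7, 180.3, 153.9, 394.2 and 449.6, so all 4 arrays at pH 6.4 were above the other 6.

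Genes of neighbouring steps of the cell cycle were counted in the same way. Of 26 genes of DNA replication and the G1/S step, 15 rose and 0 fell at 12 h (median 0.53) and 3 rose and 0 fell at 4 h, with Orc1 (1.31), Cdc6 (1.26) and Cdc45 (1.07) rising the most. Of 19 kinetochore genes, 2 rose and 5 fell at 4 h and 3 rose and 1 fell at 12 h, including Nsl1 (1.42 at 12 h), Cenpc1 (-1.12 at 4 h) and Cenpi (-0.87 at 4 h). Of 12 cohesin genes, 0 rose and 1 fell at 4 h and 2 rose and 1 fell at 12 h, including Cdca5 (1.10) and Sgo2a (0.94) at 12 h and Sgo1 (-0.64) at 4 h. Of 15 APC/C genes, 1 fell at 4 h and 3 rose and 1 fell at 12 h, including Cdc16 (0.66), Cdc27 (-0.59) and Cdc26 (0.52) at 12 h. The shares called at 4 h and 12 h were 11.5% and 57.7% for replication and G1/S genes and 36.8% and 21.1% for kinetochore genes. They were 8.33% and 25% for cohesin genes and 6.67% and 26.7% for APC/C genes. Over all genes 17.7% and 34.5% were called in either direction at 4 h and 12 h, and 16.9% were called higher at 12 h. None of these lists was tested as a set against the mitosis genes.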

How the data were processed

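The 10 arrays were 1 for each of 2 lines and 5 conditions. Per the deposited table, values are linear signal per probe set as the authors deposited it, with a 2% trimmed mean of 100 on every array, and the summary software is not given in the sources used here. Signals were quantile normalised and taken as log2(signal + 2.4), a pseudocount equal to the deposited values' 20th percentile. Fold changes are on this scale, which understates changes of dim genes. Printed signals are as deposited. Probe sets were named through the platform annotation: of 45101 probe sets, 34945 had 1 symbol, 932 several and 9160 none. Genes whose mean reached the 40th percentile (log2 3.17) were tested with limma 3.58.1 in R 4.3.3 (lmFit, eBayes, Benjamini-Hochberg over 12161 genes, threshold 0.05). The average pH and time comparisons used 4 matched pairs (3 residual degrees of freedom), the line comparison 5 pairs (4 degrees), the comparisons at 1 time or pH an additive fit of line and condition over all 10 arrays (4 degrees), and pH by line 2 degrees. The script was tested on simulated data.

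Up to 14 called members were given in full, those with the largest difference, then the member with the largest pH difference at 12 h in each role group without one. Up to 3 called genes, those with the largest differences, were named of each other list. The members and lists were chosen with earlier results of these data known. Alternatives were other normalisations, filters, pseudocounts (0.5 and 7.7), the mean of all probe sets, eBayes with trend and robust, no block, and single arrays or pairs left out. The number of arrays limits the precision.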

Additional observations from a re-analysis of the deposited data

Results flagged for a closer look

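The pH effect differed between 4 h and 12 h for 3 mitosis genes by the test of the difference itself (limma, all 10 arrays). The pH difference was higher at 12 h by 1.26 on the log2 scale for Incenp (limma adjusted p = 0.0270), by 1.04 for Plk4 (limma adjusted p = 0.0467) and by 0.81 for Aurkb (limma adjusted p = 0.0199). Each value was above 0 in both lines. Over all genes 12.1% were called and 6.63% were called upward, against 6.67% of the members, so the members' share was not above the background. With 1 array left out the values ran from 1.03 to 1.49 for Incenp, 0.80 to 1.28 for Plk4 and 0.76 to 0.86 for Aurkb. The calls were lost without many of the arrays, as given above.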

How the results depend on the processing

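Counts of called members moved with the variance model, the filter and the scaling more than directions did. The shares of all genes called under these alternatives are not printed, here or above. A count that moved is therefore not set against its background and cannot be read as a result about the mitosis genes in particular. For the average pH comparison (3 called) the count was 1 with arrays centred on the median, 0 without a filter, 5 with the filter at the 60th percentile, 1 with the lower pseudocount and 8 with trend and robust. For pH at 4 h (5 called) these were 8 centred, 3 unfiltered, 11 with the stricter filter, 9 with the higher pseudocount, 3 with averaged probe sets and 16 with trend and robust. For pH at 12 h (12 called) they were 7 unfiltered and 20 with trend and robust. For the pH effect at 12 h against that at 4 h (3 called) they were 7 centred, 7 as deposited, 0 unfiltered, 11 with the stricter filter, 1 with averaged probe sets and 16 with trend and robust. For 12 h against 4 h at pH 6.4 (13 called) they were 2 unfiltered and 5 with averaged probe sets. For the line comparison (0 called) they were 2 with the stricter filter, 1 with the higher pseudocount and 6 with trend and robust. The filters differ in how many other genes share the adjustment, and the other causes were not tested. With single pairs or arrays left out, the counts ran from 0 to 0 for the average pH comparison, 0 to 9 for pH at 4 h, 3 to 13 for pH at 12 h, 0 to 5 for the pH effect over time and 1 to 8 for 12 h against 4 h at pH 6.4. With a size limit of 1 in place of 0.58 for single arrays, 2 members at 4 h passed in each line, and at 12 h 2 in the TDAG8 line and 1 in the other. Where a condition was left with 1 array, it was assumed to vary like the others. Both direction changes came with averaged probe sets, for Ttk between 4 h and 12 h at pH 6.4 (-0.08) and for Foxm1 under pH at 12 h (-0.12). Over the named genes, 184 of the values with an array or pair left out lost their call and 177 did not change side, and over other settings these numbers were 56 and 247. The pH, time and line comparisons were paired by line and condition, and without that block the counts were 2, 0 and 0.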
